A study of Mus musculus with 12 samples.

Results

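Vegfa, Pfkfb3, Slc2a1, Hk2, Ldha, Pgk1, Car9, Bnip3, Ndrg1 and Pdk1 are genes that cells switch on when oxygen is short or when they burn glucose quickly. Their expression was followed in CT26 tumours, which grow in mice from a mouse colon carcinoma line. The 10 genes were picked by symbol from a table of 55415 entries, and all 10 were among the 13668 genes that passed a filter on low values. RNA-seq libraries came from 4 groups of 3 tumour samples: mice given Complex 1 and radiation (the combination), mice given radiation, mice given Complex 1, and untreated control mice. Complex 1 is a platinum compound that the series title describes as activated by X-rays. All groups carried the same tumour line, whose cells the labels call WT. The sources used here do not give doses, sampling times, or the strain and age of the mice, nor whether Complex 1 had a vehicle, and the control mice are labelled untreated. Whether the 3 libraries of a group stem from different mice is not stated either, and p-values then measure only how much these samples vary, which may be technical.

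When oxygen falls, the hypoxia-inducible factor (HIF) escapes destruction, because the prolyl hydroxylases that mark it for the von Hippel-Lindau protein need oxygen. HIF then binds short DNA elements near its target genes and raises glucose uptake, glycolysis, lactate output, acid handling and the call for new vessels. Solid tumours often run this programme also with oxygen present, since growth signalling and altered metabolism feed into the same genes.

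The libraries held 15.6 to 19.1 M counts each. Over all tested genes, 1010 were higher and 801 lower in radiation than in control tumours (edgeR's quasi-likelihood test, adjusted p under 0.05), and 1620 were higher and 1373 lower in the combination. The balance of directions moved with the scaling. With library totals the counts were 1157 higher and 587 lower for radiation, and with the gene length trend removed they were 902 and 1302. The combination gave 1932 higher and 903 lower with library totals, and 1441 and 2247 with the length trend removed. Control replicate 2 held Xist at 0.02 FPKM, while the other 11 libraries held 9.2 to 14.16 FPKM. Complex 1 replicate 3 and radiation replicate 2 differed from their groups in T and NK cell markers, and results were also computed without these 3 libraries. Of 7 epithelial marker genes, 2 passed the filter on low values, Krt20 and Krt18. Krt20 was the abundant one, at 66.56 to 148.24 FPKM. Krt18 averaged 3.69 FPKM in the combination, 4.23 after radiation, 4.99 after Complex 1 and 6.51 in control. Epcam reached at most 0.18 FPKM and Krt8 at most 0.67 FPKM in any library, so these epithelial markers were near 0 while the other keratins named were not.

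Levels per length are given as FPKM, fragments per kilobase of exon scaled to the library total. Pgk1, which makes ATP in the payoff phase of glycolysis, averaged 641.6 FPKM over the 12 libraries and lay above 99.66% of tested genes. Ldha, which turns pyruvate into lactate, averaged 543.3 FPKM. Pfkfb3, whose product makes the activator of phosphofructokinase, was the least abundant at 4.964 FPKM, above 39.44% of tested genes. It also had the widest range, its highest library being 3.46 times its lowest, while the range of Ldha was 1.31-fold. Between these lay Ndrg1 at 135.0, Bnip3 at 110.2, Slc2a1 at 65.25, Vegfa at 58.95, Hk2 at 18.56, Car9 at 14.52 and Pdk1 at 13.63 FPKM. Together the 10 genes took 0.417% to 0.644% of the counts of a library.

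In mouse build mm39, as the deposited table gives gene bodies, Vegfa (ENSMUSG00000023951) lies on the minus strand of chromosome 17 from 46327919 to 46343295. Pfkfb3 (ENSMUSG00000026773) lies on the minus strand of chromosome 2 from 11476244 to 11558888, and Pdk1 (ENSMUSG00000006494) on the plus strand of the same chromosome from 71703568 to 71734202. Slc2a1 (ENSMUSG00000028645) and Car9 (ENSMUSG00000028463) lie on the plus strand of chromosome 4, from 118965908 to 118995180 and from 43506966 to 43513729. Hk2 (ENSMUSG00000000628) lies on the minus strand of chromosome 6 from 82702006 to 82751435. Ldha (ENSMUSG00000063229, plus strand, 46490899 to 46505051) and Bnip3 (ENSMUSG00000078566, minus strand, 138492565 to 138511248) are on chromosome 7. Ndrg1 (ENSMUSG00000005125) lies on the minus strand of chromosome 15 from 66801167 to 66841489, and Pgk1 (ENSMUSG00000062070) on the plus strand of chromosome X from 105230706 to 105247305. All are protein-coding genes, and the counts cover their exons.

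The core of the HIF response element is ACGTG or GCGTG. These were searched on both strands (as CACGT and CACGC on the other) in windows from 250 bases before to 50 bases after a start site, taken from RefSeq on build GRCm38.p6. CACGTG holds ACGTG on both strands and counts as 2 matches. Windows were at hand for 9 of the 10 genes, 13 windows in all. Of these 13 windows 11 held either core, and each of the 9 genes had a match in at least 1 window. Of 32851 windows of all genes, 43.8% held either core, 19.6% held ACGTG and 32.4% held GCGTG. At least 3 matches stood in 3 of the 13 windows, those of Ldha (7 matches), Bnip3 (5) and Pfkfb3 (4), against 8.93% of all windows. The 250 bases upstream of the start site are shown for the genes whose levels changed most or most together, with the core letters in capitals. A match is a string of letters, not a bound site, and binding was not measured.
Vegfa, chr17:46032378-46032627, minus strand: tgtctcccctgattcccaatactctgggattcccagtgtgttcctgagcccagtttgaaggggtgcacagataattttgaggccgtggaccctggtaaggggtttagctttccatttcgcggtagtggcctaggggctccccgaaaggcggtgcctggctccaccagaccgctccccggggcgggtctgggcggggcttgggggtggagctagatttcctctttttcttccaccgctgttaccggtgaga
Pfkfb3 window 1, chr2:11553930-11554179, minus strand: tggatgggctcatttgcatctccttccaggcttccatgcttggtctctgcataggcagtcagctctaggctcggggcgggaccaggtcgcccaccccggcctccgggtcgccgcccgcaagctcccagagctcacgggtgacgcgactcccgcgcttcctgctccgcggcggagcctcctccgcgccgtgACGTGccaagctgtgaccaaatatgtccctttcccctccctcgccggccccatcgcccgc
Pfkfb3 window 2, chr2:11502091-11502340, minus strand: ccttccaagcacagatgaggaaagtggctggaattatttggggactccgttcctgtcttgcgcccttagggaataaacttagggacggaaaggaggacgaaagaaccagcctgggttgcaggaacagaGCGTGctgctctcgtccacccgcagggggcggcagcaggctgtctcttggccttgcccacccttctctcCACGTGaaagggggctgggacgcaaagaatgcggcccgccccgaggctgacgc
Ldha, chr7:46845554-46845803, plus strand: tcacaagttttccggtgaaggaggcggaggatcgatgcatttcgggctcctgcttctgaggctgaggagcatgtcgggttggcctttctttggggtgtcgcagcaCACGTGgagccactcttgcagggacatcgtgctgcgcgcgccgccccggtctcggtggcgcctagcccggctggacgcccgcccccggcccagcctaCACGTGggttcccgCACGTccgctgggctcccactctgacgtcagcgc
Pgk1, chrX:106186850-106187099, plus strand: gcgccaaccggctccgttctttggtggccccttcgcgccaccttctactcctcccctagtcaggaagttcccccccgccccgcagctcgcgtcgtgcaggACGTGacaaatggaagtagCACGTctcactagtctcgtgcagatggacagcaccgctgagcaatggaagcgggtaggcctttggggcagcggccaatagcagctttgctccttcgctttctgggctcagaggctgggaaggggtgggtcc
The Vegfa stretch holds neither core, while a second Vegfa window, which starts inside the gene, has 2. In Pgk1 the matches begin 150 and 131 bases before the start site. In Ldha they begin at 145, 144, 48, 47 and 34 bases, so that 2 pairs overlap as CACGTG. Pfkfb3 has 1 match at 60 bases in its first window, and 122, 53 and 52 bases before the start in its second.

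Vegfa, the main growth factor for new vessels, was lower in every irradiated tumour than in any that was not irradiated. It was measured at 47.59, 43.00 and 51.96 FPKM in the combination, at 46.88, 42.56 and 55.31 FPKM after radiation, at 69.04, 55.99 and 71.68 FPKM after Complex 1, and at 80.24, 82.72 and 60.43 FPKM in control tumours. The 6 irradiated libraries all lay below the 6 others, and Vegfa was the only member with such a split, with 0 members higher. Of all tested genes, 3.97% were lower and 4.9% higher in this way. Between combination and control the groups did not overlap, and the mean was 47.5 ± 4.48 FPKM against 74.5 ± 12.2 FPKM (SD, n = 3 each). Vegfa fell in the combination relative to control by 0.70 ± 0.14 on the log2 scale (SE; edgeR, adjusted p = 0.0034). It fell after radiation relative to control by 0.65 ± 0.14 (SE; edgeR, adjusted p = 0.0094), and this held with any library left out, with an adjusted p of at most 0.041, but not without all 3 libraries that stand apart (0.063). Averaged over both levels of Complex 1, Vegfa fell with radiation by 0.57 ± 0.10 on the log2 scale (SE; edgeR, adjusted p = 0.0011).

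**Figure D1:**
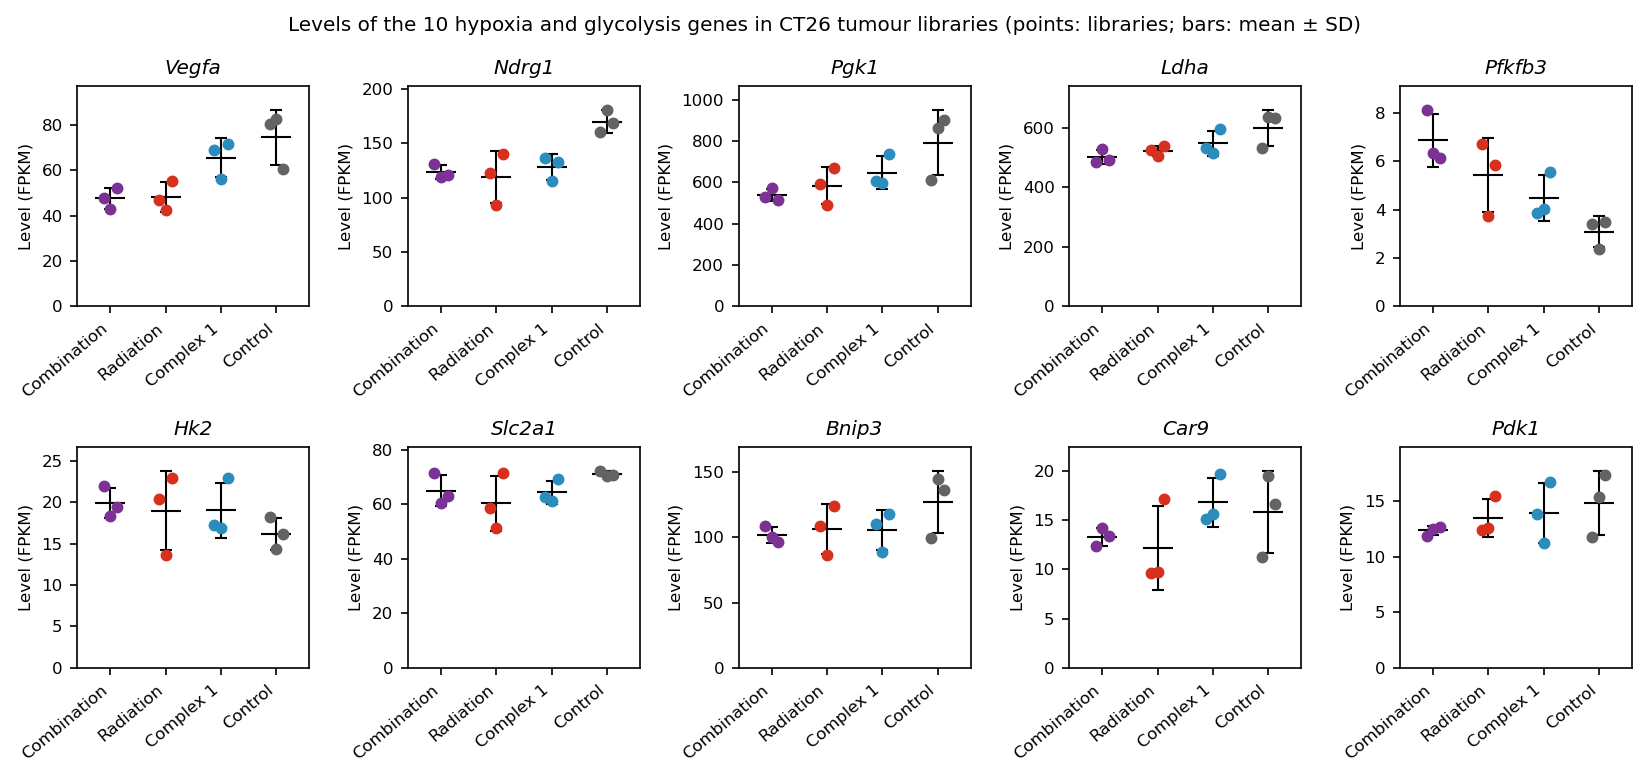
Level of each of the 10 genes in FPKM (vertical axes, starting at 0) in the combination, radiation, Complex 1 and control groups, with 1 point per library and the mean with its SD over 3 libraries. Vegfa and Ndrg1 lie lower in irradiated groups than in control, Pfkfb3 lies higher, and the groups of Slc2a1, Car9 and Pdk1 largely overlap. Exceptions are Slc2a1 after Complex 1, wholly below control, and Car9 in the combination, wholly below Complex 1.

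Enzymes of glucose breakdown changed in opposite directions: Pfkfb3 rose, while Pgk1 and Ldha fell in the combination. Pfkfb3 was measured at 8.13, 6.33 and 6.13 FPKM in the combination, at 6.70, 3.73 and 5.85 FPKM after radiation, at 3.86, 4.02 and 5.57 FPKM after Complex 1, and at 3.4, 2.35 and 3.5 FPKM in control tumours. No treated library lay below a control library, and the combination did not overlap with Complex 1 either. Pfkfb3 rose in the combination relative to control, by 1.11 ± 0.22 on the log2 scale (SE; edgeR, adjusted p = 0.0033), with means of 6.86 ± 1.1 against 3.08 ± 0.637 FPKM (SD, n = 3 each). It rose after radiation relative to control by 0.79 ± 0.22 (SE; edgeR, adjusted p = 0.032). That call was lost without control replicate 1 (adjusted p 0.064), control replicate 2 (0.12), radiation replicate 1 (0.13) or radiation replicate 3 (0.088), with robust estimation (0.067), and in limma on log2(FPKM + 1) (0.06) or log2(FPKM + 0.1) (0.057). Over both levels of Complex 1 it rose by 0.69 ± 0.15 with radiation (SE; edgeR, adjusted p = 0.0054), a call that held with each library left out. The ratio of Pfkfb3 to Vegfa level was 17.08, 14.72 and 11.8% in the combination, 14.29, 8.764 and 10.58% after radiation, 5.591, 7.18 and 7.771% after Complex 1, and 4.237, 2.841 and 5.792% in control tumours. No irradiated library had a ratio within the range of the libraries that were not irradiated.

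Pgk1 and Ldha, the most abundant of the 10, lay lowest in the combination. Pgk1 was measured at 531.91, 572.70 and 515.44 FPKM in the combination, at 592.84, 490.41 and 670.58 FPKM after radiation, at 609.11, 596.29 and 739.12 FPKM after Complex 1, and at 610.63, 865.29 and 904.35 FPKM in control tumours. All 3 combination libraries lay below all control and all Complex 1 libraries, and control replicate 1 was well below the other 2 controls. Pgk1 fell in the combination relative to control by 0.60 ± 0.15 on the log2 scale (SE; edgeR, adjusted p = 0.011). After radiation its difference from control was -0.47 ± 0.15 (SE; edgeR, adjusted p = 0.052), which passed without control replicate 1 (0.015), Complex 1 replicate 3 (0.037) or radiation replicate 3 (0.046) and under DESeq2 (0.011). Averaged over both levels of Complex 1, Pgk1 fell with radiation by 0.38 ± 0.10 (SE; edgeR, adjusted p = 0.017), which did not pass without the 3 libraries that stand apart (-0.23, adjusted p = 0.11).

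Ldha was measured at 485.84, 528.33 and 491.74 FPKM in the combination, at 525.50, 504.01 and 537.79 FPKM after radiation, at 533.52, 514.63 and 594.96 FPKM after Complex 1, and at 531.32, 637.46 and 634.22 FPKM in control tumours. The combination lay wholly below control, although combination replicate 2 and control replicate 1 were almost level. Ldha fell in the combination relative to control by 0.31 ± 0.08 on the log2 scale (SE; edgeR, adjusted p = 0.020), but not without combination replicate 1 (0.07), combination replicate 3 (0.064), control replicate 2 (0.087) or control replicate 3 (0.063). That call was also lost without the 3 libraries that stand apart (0.055) and in limma on log2(FPKM + 1) (0.064) or log2(FPKM + 0.1) (0.065). After radiation the difference from control was -0.23 ± 0.08 (SE; edgeR, adjusted p = 0.092). Over both levels of Complex 1 it fell with radiation by 0.19 ± 0.06 (SE; edgeR, adjusted p = 0.034), a call lost when any of 8 libraries was left out (adjusted p 0.051 to 0.084), that is, any but control replicate 1, Complex 1 replicate 2, radiation replicate 3 or combination replicate 2. It was also lost with library totals (0.057), in both limma fits (0.081 and 0.082) and without the 3 libraries that stand apart (-0.12, adjusted p = 0.21).

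The remaining genes of glucose handling did not pass in any of the 8 comparisons with the chosen settings. Hk2, which traps glucose in the cell as its phosphate, was at 22, 18.41 and 19.47 FPKM in the combination and at 18.18, 14.33 and 16.18 FPKM in control tumours. These groups did not overlap, yet the difference was 0.25 ± 0.17 on the log2 scale (SE; edgeR, adjusted p = 0.33). Without the 3 libraries that stand apart, Hk2 passed for radiation averaged over both levels of Complex 1 (0.26, adjusted p = 0.017). Slc2a1, the glucose carrier GLUT1, averaged 65.1 ± 5.79 FPKM in the combination, 60.4 ± 10.1 FPKM after radiation, 64.4 ± 4.17 FPKM after Complex 1 and 71.2 ± 0.907 FPKM in control (SD, n = 3 each). Its difference from control was -0.26 ± 0.11 after radiation (SE; edgeR, adjusted p = 0.12; 0.024 without radiation replicate 3) and -0.18 ± 0.11 in the combination (SE; edgeR, adjusted p = 0.26). After Complex 1, Slc2a1 lay wholly below control, yet the difference of -0.17 ± 0.11 did not pass (SE; edgeR, adjusted p = 0.55). Pdk1, the kinase that holds back pyruvate dehydrogenase, averaged 12.3 ± 0.437 FPKM in the combination and 14.8 ± 2.85 FPKM in control (SD, n = 3 each). The difference of -0.31 ± 0.15 did not pass (SE; edgeR, adjusted p = 0.17; 0.049 without control replicate 1).

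Ndrg1, a gene induced by stress and low oxygen, was measured at 130.69, 119.34 and 120.44 FPKM in the combination, at 122.83, 92.83 and 140.41 FPKM after radiation, at 136.85, 114.99 and 132.44 FPKM after Complex 1, and at 160.09, 180.90 and 168.48 FPKM in control tumours. No treated library reached the lowest control library. Ndrg1 fell relative to control by 0.51 ± 0.13 in the combination (SE; edgeR, adjusted p = 0.012) and by 0.54 ± 0.13 after radiation (SE; edgeR, adjusted p = 0.015), both on the log2 scale. The radiation call was lost without control replicate 2 (0.056) and without the 3 libraries that stand apart (-0.34, adjusted p = 0.062). After Complex 1 the difference was -0.43 ± 0.13 (SE; edgeR, adjusted p = 0.15), which passed without radiation replicate 2 (0.042) and under DESeq2 (0.024). Over both levels of Complex 1 it fell with radiation by 0.31 ± 0.09 (SE; edgeR, adjusted p = 0.021), lost without combination replicate 2 (0.05), Complex 1 replicate 1 (0.051) or control replicate 2 (0.052) and without the 3 libraries that stand apart (-0.19, adjusted p = 0.068).

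Car9, an enzyme at the cell surface that handles acid, averaged 13.3 ± 0.912 FPKM in the combination, 12.2 ± 4.29 FPKM after radiation, 16.8 ± 2.47 FPKM after Complex 1 and 15.8 ± 4.18 FPKM in control (SD, n = 3 each). The combination lay wholly below Complex 1, yet the difference of -0.36 ± 0.22 did not pass (SE; edgeR, adjusted p = 0.34). After radiation the difference from control was -0.41 ± 0.22 (SE; edgeR, adjusted p = 0.25), which passed without radiation replicate 3 (0.037). Averaged over both levels of Complex 1, the radiation term was -0.38 ± 0.16 (SE; edgeR, adjusted p = 0.090), which passed under DESeq2 (0.048) and without control replicate 1 (0.032) or radiation replicate 3 (0.0098). Bnip3, which helps to remove mitochondria, averaged 101.8 ± 6.46 FPKM in the combination and 126.9 ± 23.9 FPKM in control (SD, n = 3 each), a difference of -0.36 ± 0.15 (SE; edgeR, adjusted p = 0.11) that passed without control replicate 1 (0.033). Of the 31-base words of its transcripts, 57% also occur in other genes, chiefly AC160336.1. For Pgk1 54.7% are shared with the near copy Pgk1-rs7, and for Ldha 19.6% occur in other genes, among them the pseudogene Ldha-ps2. The levels of Bnip3, Pgk1 and Ldha are thus uncertain where the counting could split reads between copies.

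Across the comparisons with control, the members that passed were 5 of 10 in the combination (1 higher, 4 lower), 3 of 10 after radiation (1 higher, 2 lower) and 0 of 10 after Complex 1. Of all tested genes, 21.9% passed in the combination, 13.2% after radiation and 0.812% after Complex 1. By direction, 11.9% were higher and 10% lower in the combination, 7.39% higher and 5.86% lower after radiation, and 0.717% higher and 0.0951% lower after Complex 1. These comparisons share their control libraries. The median log2 difference of the 10 members was -0.31 in the combination, with 8 of 10 below 0, while the median of all tested genes was -0.0068. After radiation it was -0.27, again with 8 below 0, against -0.0055 over all genes. After Complex 1 it was -0.17, with 7 below 0, and 3 members had an unadjusted p under 0.05 in edgeR (12.5% of all genes), while DESeq2 passed 1, Ndrg1. Groups did not overlap for 2 members higher (Pfkfb3, Hk2) and 4 lower in the combination than in control, where 23.9% of all genes were higher and 14.1% lower in this way. After radiation 1 member was higher and 2 lower without overlap (17.9% and 12% of all genes), and after Complex 1 also 1 and 2 (11.4% and 4.71%).

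**Figure D2:**
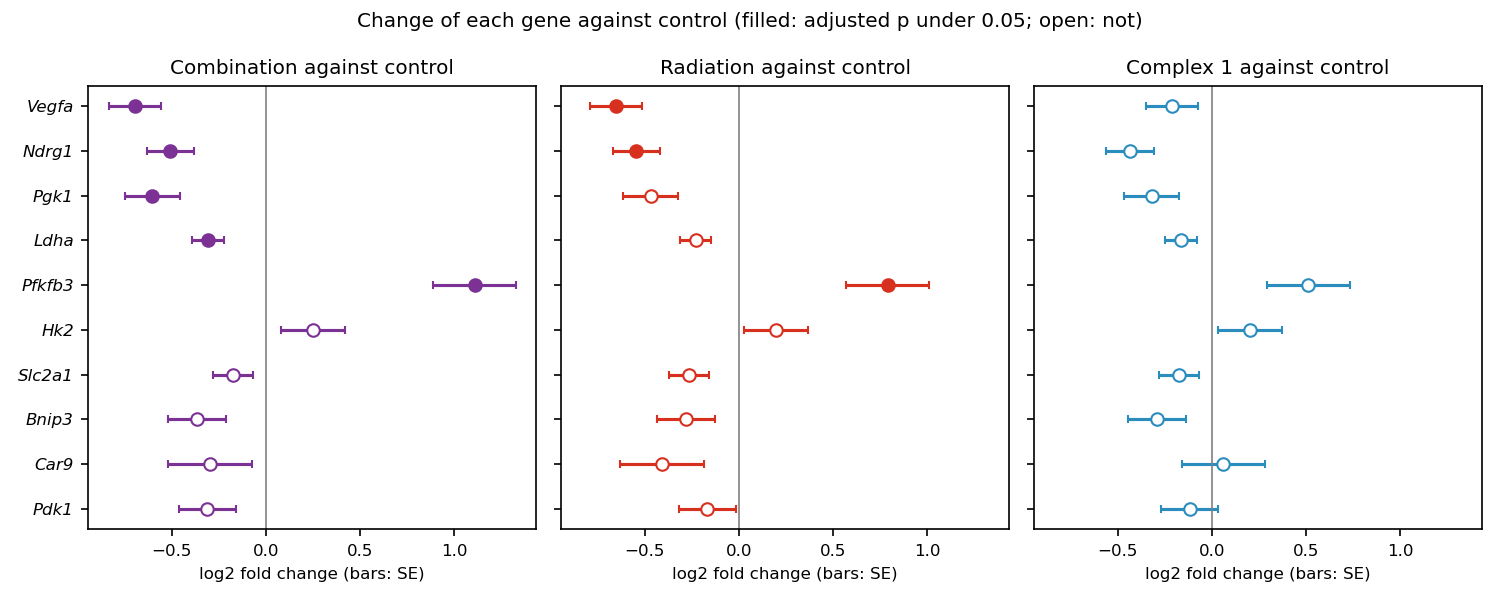
Log2 fold change against control with its standard error (horizontal axes) for each of the 10 genes in the combination, radiation and Complex 1, filled where the adjusted p is under 0.05. Filled points stand at Vegfa, Ndrg1, Pgk1, Ldha and Pfkfb3 for the combination and at Vegfa, Ndrg1 and Pfkfb3 for radiation, and there is none for Complex 1.

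The question whether adding Complex 1 to radiation changed these genes was read from the combination against radiation and from the interaction. Between the combination and radiation, 0 of the 10 members passed in edgeR or DESeq2 and 0 had an unadjusted p under 0.05, where 0.651% of all tested genes passed (0.615% higher, 0.0366% lower) and 10.3% had an unadjusted p under 0.05. The differences ran between -0.15 and 0.32 on the log2 scale, the largest being Pfkfb3 at 0.32 ± 0.21 (SE; edgeR, adjusted p = 0.64). In the combination against Complex 1, 1 of 10 members passed (0 higher, 1 lower), close to the 9.98% of all tested genes (4.73% higher, 5.25% lower). Groups did not overlap for 1 member higher and 3 lower, against 16.5% and 14% of all genes. That member was Vegfa, which fell by 0.49 ± 0.14 (SE; edgeR, adjusted p = 0.041). The call was lost without combination replicate 1 (0.11), 2 (0.14) or 3 (0.063), Complex 1 replicate 1 (0.13) or 3 (0.086) or radiation replicate 1 (0.055), without the 3 libraries that stand apart (0.065), with robust estimation (0.054) and in both limma fits (0.072 and 0.073). Pfkfb3 differed there by 0.59 ± 0.22 (SE; edgeR, adjusted p = 0.098), and passed without Complex 1 replicate 3 (0.034) or radiation replicate 2 (0.046) and under DESeq2 (0.035). Averaged over Complex 1, radiation passed for 5 of 10 members (1 higher, 4 lower), against 26.5% of all tested genes, 13.3% higher and 13.2% lower. Averaged over radiation, Complex 1 passed for 0 members, with 3 at an unadjusted p under 0.05 and 0 under DESeq2, against 2.77% of all genes that passed (2.26% higher, 0.512% lower) and 17.7% with an unadjusted p under 0.05. The interaction passed for 0 members in edgeR and in DESeq2, and for 0% of all genes in edgeR. The 1 member at an unadjusted p under 0.05 was Ndrg1, at 0.47 ± 0.18 (SE; edgeR, adjusted p = 1.0), while 4.39% of all genes were under that p.

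Over the 12 libraries, 34 of the 45 pairs of members had a correlation above 0, with a median of 0.558 (Pearson r on log2(FPKM + 1)). The lowest was Vegfa with Pfkfb3 at -0.64. Once each group's mean was taken away, the 10 genes varied together from library to library. All 45 pairs had a correlation above 0 (Pearson r on log2(FPKM + 1), 12 libraries), between 0.034 and 0.924 with a median of 0.522, while 50.4% of all pairs of tested genes were above 0. The strongest was between Ldha and Pgk1 at 0.924, and Pgk1 and Bnip3 reached 0.893. Pfkfb3 ran with Hk2 at 0.896, and Hk2 with Slc2a1 at 0.872. The weakest were Pfkfb3 with Car9 at 0.034 and Vegfa with Ldha at 0.036. These values describe 12 libraries that differ in depth (15.6 to 19.1 M counts) and whose labels name no batch. No test was made, and a technical part in these correlations was not tested. In radiation replicate 3, all 10 members lay above their group mean, as they did in Complex 1 replicate 3. In radiation replicate 2 and in Complex 1 replicate 2, 0 of 10 members did.

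**Figure D3:**
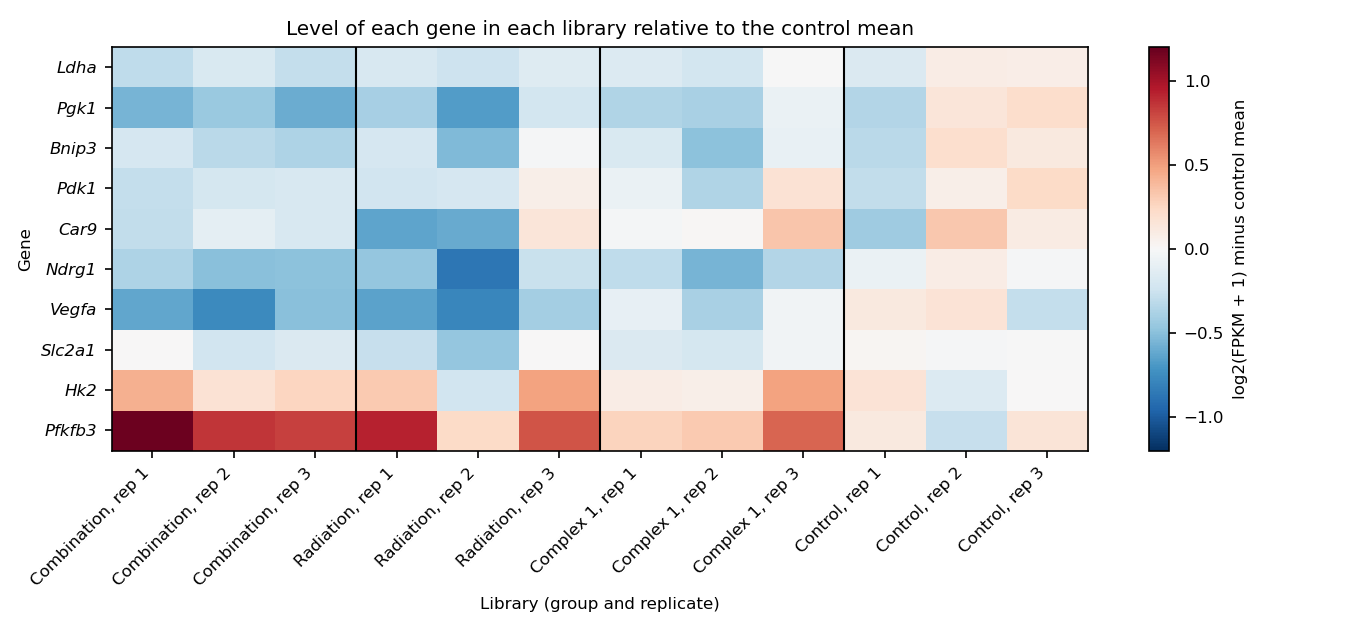
Colour gives log2(FPKM + 1) minus the control mean for each gene (rows) in each library (columns, by group). Pfkfb3 is high in all treated libraries, and radiation replicate 2 has a lower value than radiation replicate 3 for all 10 genes.

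The genes with the most similar pattern over the 12 libraries were found by Pearson r of log2(FPKM + 1). They were sought among the tested genes, with predicted and otherwise unnamed genes and pseudogenes left out. For Ldha they were Pgk1 (0.967), Tpi1 (0.962) and Eno1 (0.933), for Pgk1 Ldha, Tpi1 (0.943) and Eno1 (0.938), and for Pdk1 Tpi1 (0.887), Pkm (0.857) and Ankrd37 (0.856). For Bnip3 they were Tpi1 (0.886), Pgk1 (0.871) and Tmem71 (0.832), and for Car9 Eno1b (0.882), Fam162a (0.873) and Trim39 (0.861). For Vegfa they were Mex3b (0.917), Cs (0.894) and Syt7 (0.883), for Ndrg1 Brme1 (0.912), Rnf6 (0.898) and Cep43 (0.888), and for Slc2a1 Ndrg1 (0.840), Nbas (0.838) and Sdc4 (0.820). Pfkfb3 was most like Nfatc2 (0.973), Slc43a2 (0.968) and Psen2 (0.966), and Hk2 most like Itgal (0.895), Trim72 (0.890) and Kit (0.879). The mean of the 10 genes, each first standardized over the libraries, was compared with genes other than the 10. It was most like Egln1 (0.924), an oxygen-sensing prolyl hydroxylase, Eno1b (0.913) and Fam162a (0.873).

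Other genes of the same pathways passed in both directions, as did all tested genes, of which 11.9% were higher and 10% lower in the combination. Of 22 other HIF targets tested, 2 rose and 6 fell in the combination relative to control, with a median of -0.16. Angptl4, a regulator of fat transport, was at 30.75, 25.16 and 24.24 FPKM in the combination, at 14.35, 12.90 and 16.30 FPKM after radiation, at 13.70, 15.87 and 12.89 FPKM after Complex 1, and at 8.57, 10 and 10.91 FPKM in control tumours. The combination stood above every other library. Angptl4 rose in the combination by 1.40 ± 0.12 relative to control (SE; edgeR, adjusted p = 4.2e-05) and by 0.86 ± 0.12 relative to radiation (SE; edgeR, adjusted p = 0.0059). Hmox1, the heme-degrading oxygenase, rose by 1.17 ± 0.28 (SE; edgeR, adjusted p = 0.011), while Ero1a, which supports disulfide formation, fell by 0.57 ± 0.14 (SE; edgeR, adjusted p = 0.010) and Kdm3a, a histone demethylase, fell by 0.41 ± 0.09 (SE; edgeR, adjusted p = 0.0056). After radiation 1 of the 22 was higher and 1 lower, and after Complex 1 it was 0 and 0 (edgeR; 4 at an unadjusted p under 0.05). Of all tested genes, 7.39% were higher and 5.86% lower after radiation, and 12.5% had an unadjusted p under 0.05 in edgeR after Complex 1.

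Of 20 other genes of glycolysis and lactate transport, 4 were higher and 2 lower in the combination than in control, with a median of 0.07. Of all tested genes, 11.9% were higher and 10% lower there. Slc2a3, a second glucose carrier, was at 2.07, 1.64 and 3.07 FPKM in the combination and at 0.67, 0.73 and 0.61 FPKM in control tumours, without overlap. It rose by 1.71 ± 0.38 (SE; edgeR, adjusted p = 0.0065). Its control libraries all lay under the filter at FPKM 1, which it met only through treated libraries, so this direction was partly set by the filter. Pfkfb4, a relative of Pfkfb3, rose by 0.53 ± 0.10 (SE; edgeR, adjusted p = 0.0021). Slc16a1, a lactate carrier, fell by 0.41 ± 0.07 (SE; edgeR, adjusted p = 0.0014), and Gapdh rose by 0.35 ± 0.09 (SE; edgeR, adjusted p = 0.019) at a level of only 23.65 to 36.24 FPKM, with 28.1% of its 31-base words found in other genes. After radiation 2 were higher and 1 lower (7.39% and 5.86% of all tested genes). Of 10 tested genes of pyruvate import and oxidation (the mitochondrial carriers, pyruvate dehydrogenase with its kinases and phosphatases, and citrate synthase), 0 were higher and 3 lower in the combination, among them Pdhb, a subunit of pyruvate dehydrogenase, which fell by 0.33 ± 0.08 (SE; edgeR, adjusted p = 0.0087).

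Of 7 HIF subunits and sensors tested, 1 was higher in the combination, Epas1, which encodes the second HIF alpha subunit, by 0.49 ± 0.16 (SE; edgeR, adjusted p = 0.043). After radiation 1 of the 7 was higher, and after Complex 1 it was 0. Of all tested genes, 11.9% were higher in the combination, 7.39% after radiation and 0.717% after Complex 1. Epas1 was low, averaging 1.98 FPKM in the combination, 2.12 after radiation, 2.11 after Complex 1 and 1.37 in control. Its rise was thus not particular to the combination, and after Complex 1 the difference was 0.60 ± 0.16 (SE; edgeR, adjusted p = 0.12). Hif1a, the main HIF alpha subunit, lay between 29.81 and 39.70 FPKM in all libraries. In the VEGF family and its receptors, 1 of 7 was higher, Vegfd, a lymphatic growth factor. It was at 22.33, 23.64 and 21.36 FPKM in the combination, at 23.44, 20.77 and 20.23 FPKM after radiation, at 11.36, 11.74 and 16.54 FPKM after Complex 1, and at 7.89, 11.41 and 12.92 FPKM in control tumours, so all irradiated libraries lay above all others, the reverse of Vegfa. Vegfd rose by 1.02 ± 0.17 in the combination (SE; edgeR, adjusted p = 0.0011) and by 0.97 ± 0.17 after radiation (SE; edgeR, adjusted p = 0.0035) relative to control.

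Genes driven by ATF4, the stress factor that can also raise Vegfa, were mostly lower in the irradiated groups. Of 14 tested, 1 was higher and 10 lower in the combination than in control, with a median of -0.60, and 0 and 9 after radiation, with a median of -0.53. After Complex 1 it was 0 and 0, with a median of 0.04 and 3 at an unadjusted p under 0.05. Atf4 itself fell by 0.61 ± 0.12 in the combination (SE; edgeR, adjusted p = 0.0028). The part of ATF4 in the level of Vegfa was not tested. Of 15 proliferation genes, 0 were higher and 11 lower in the combination, and 0 and 9 after radiation. Of 10 p53 targets, 9 were higher in the combination and 8 after radiation, and 0 were lower in either. Of all tested genes, 11.9% were higher and 10% lower in the combination, and 7.39% and 5.86% after radiation. These lists were chosen with earlier results of these data known, so their counts are descriptions.

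**Figure D4:**
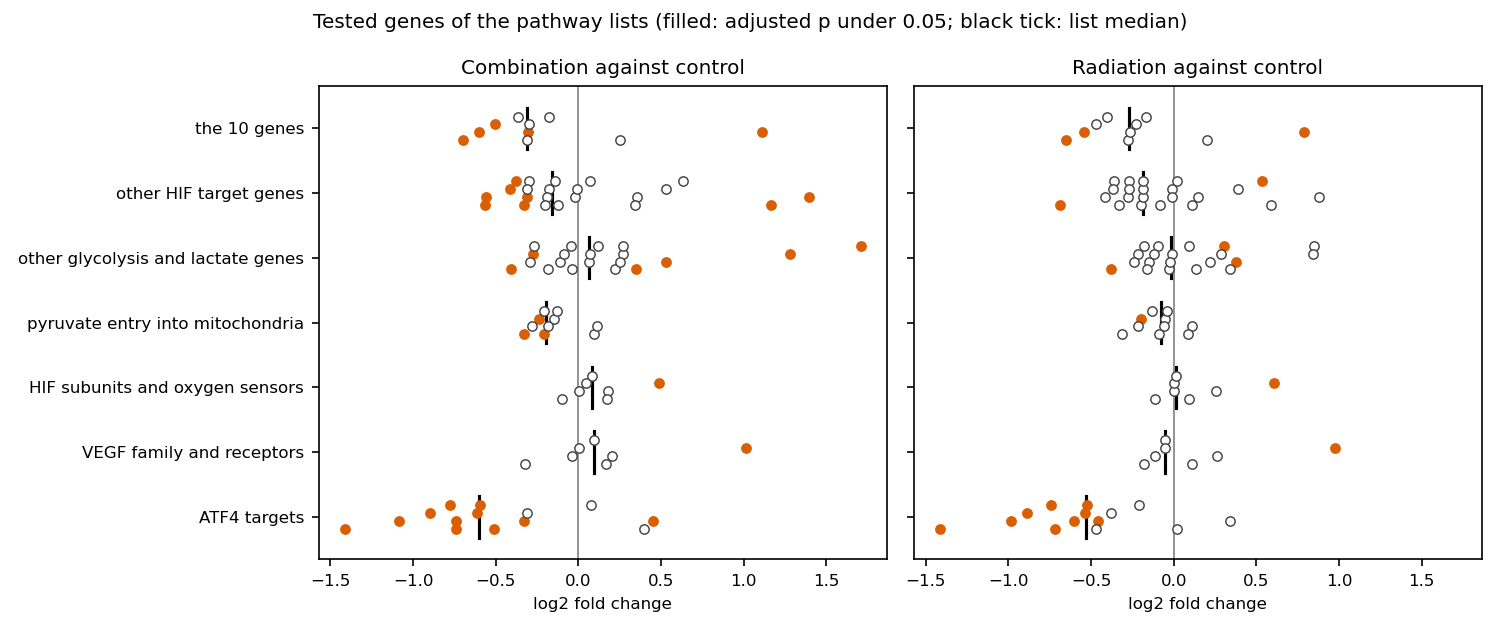
Log2 fold change against control (horizontal axes) of each tested gene of the pathway lists (points, filled where the adjusted p is under 0.05, with a black tick at the list's median), in the combination and in radiation. Most ATF4 targets lie below 0 in both panels, with medians of -0.60 and -0.53, while the other HIF targets and the glycolysis genes spread on both sides of 0.

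Markers of some other cells also differed between groups, though not all in the same groups. In bulk tumour RNA, fewer cells of a type and less RNA per cell cannot be told apart. The 10 macrophage and monocyte markers summed to 2117 to 2254 FPKM in the combination, to 2101 to 2282 FPKM after radiation, to 1408 to 1566 FPKM after Complex 1 and to 1003 to 1193 FPKM in control, so that irradiated libraries, low in Vegfa and high in Vegfd, were high in these. Of the 10, 8 passed as higher in the combination, 7 after radiation and 1 after Complex 1 (11.9%, 7.39% and 0.717% of all tested genes). Of 9 neutrophil markers, 8 were tested. They summed to 263.0 to 438.1 FPKM in the combination, to 15.3 to 44.4 FPKM after radiation, to 107.9 to 210.1 FPKM after Complex 1 and to 16.0 to 24.7 FPKM in control, and 8 passed as higher in the combination, 1 after radiation and 5 after Complex 1. Retnlg, Cxcr2 and Mmp8 averaged 0.063, 0.23 and 0.20 FPKM in control and 5.28, 3.23 and 1.70 FPKM in the combination. They met the filter at FPKM 1 only through treated libraries, so the count of markers passing as higher was partly set by the filter. Ly6g, a defining neutrophil marker, stayed at 0 to 0.27 FPKM. The part of these cells in the results on the 10 genes was not tested.

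Of 10 T and NK cell markers, 9 were tested, and 4 passed as higher in the combination, 2 after radiation and 0 after Complex 1 (edgeR; 2 at an unadjusted p under 0.05). Their sum was 52.3 to 64.9 FPKM in the combination, 19.0 to 51.6 FPKM after radiation, 20.4 to 53.6 FPKM after Complex 1 and 21.9 to 24.4 FPKM in control. Cd4, with means of 0.44 FPKM in control and 1.29 FPKM in the combination, met the filter only through treated libraries. Complex 1 replicate 3 had the highest sum and the highest Pfkfb3 of its group, and radiation replicate 2 had the lowest of both in its group. In the combination the order was the reverse, since the sums were 52.3, 55.9 and 64.9 FPKM in replicates 1, 2 and 3 while Pfkfb3 was highest in replicate 1 and lowest in replicate 3. The match in the first 2 groups was not particular to Pfkfb3. Complex 1 replicate 3 was the highest of its group for 9 of the 10 members, and radiation replicate 2 the lowest for 8. Endothelial markers, the cells that Vegfa acts on, summed to 22.3 to 25.7 FPKM in the combination, 20.1 to 27.6 FPKM after radiation, 18.1 to 39.7 FPKM after Complex 1 and 17.7 to 33.0 FPKM in control. Of their 8 tested members 0 passed against control in any treated group, with 0 at an unadjusted p under 0.05. Fibroblast and pericyte markers summed to 297.1 to 305.8 FPKM in the combination, 244.8 to 278.4 FPKM after radiation, 228.8 to 285.9 FPKM after Complex 1 and 211.2 to 236.0 FPKM in control. Of their 8 tested members, 1 passed as higher than control in the combination, 0 after radiation and 0 after Complex 1. Of all tested genes, 11.9%, 7.39% and 0.717% were higher in these groups. The part of these cells in the results was not tested either.

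**Figure D5:**
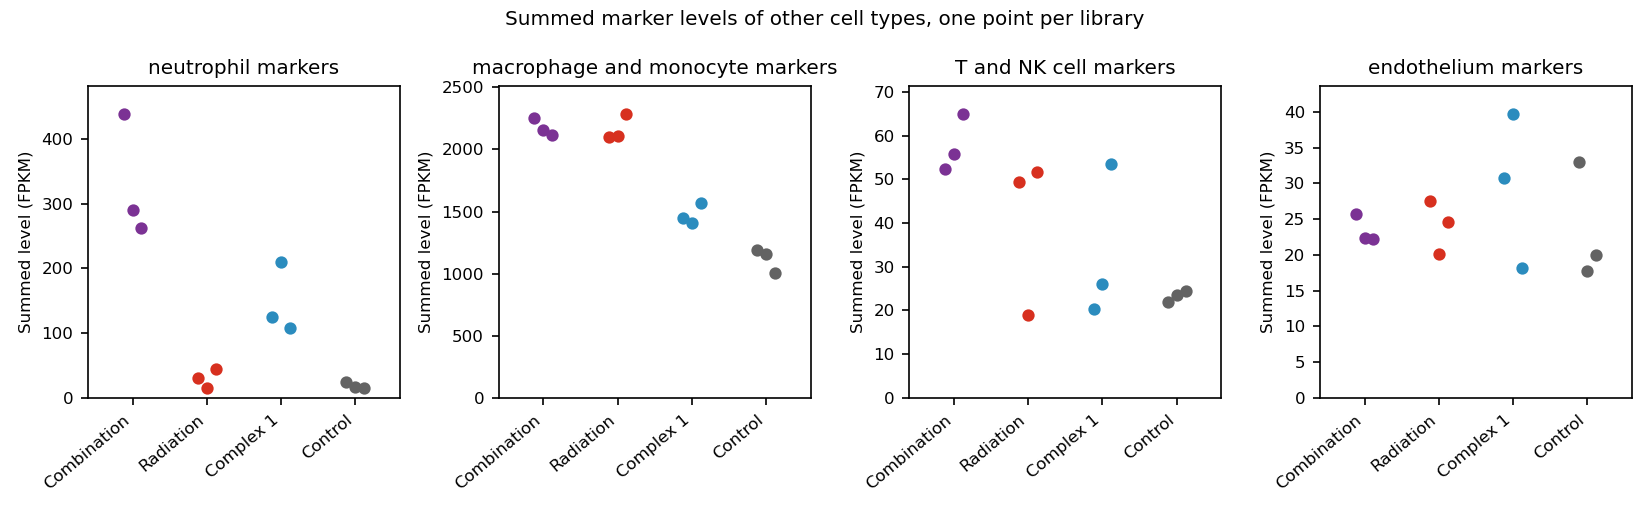
Summed FPKM of the marker lists in each library (points) by group, combination, radiation, Complex 1 and control. Macrophage and monocyte markers are high in both irradiated groups, neutrophil markers in both groups given Complex 1, and endothelial markers overlap between all groups.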

How the data were processed

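RNA was sequenced from CT26 tumour tissue in 4 groups of 3 libraries, grouped by the sample titles. Per the labels' protocols, total RNA went into NEB Next Ultra libraries. The submitters' processing notes name the tools HTSeq 2.0.1, STAR 2.5.3a and DESeq2 and the build mm39. The strand setting is not given in the sources used here, so reads of antisense genes cannot be told apart. The authors deposited raw whole-number counts per gene and library. The authors also deposited FPKM, which the counts and gene lengths gave back within 0.005 FPKM. Entries without a symbol held 0.0579% to 0.0706% of counts.

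Levels in the text are FPKM. Tests ran on the counts with edgeR 4.0.16 in R 4.3.3: TMM scaling, genes reaching FPKM 1 in 3 or more of the 12 libraries, all libraries in 1 quasi-likelihood model, 8 comparisons, and Benjamini-Hochberg adjustment over 13668 genes per comparison (threshold 0.05). The procedure was tested on simulated data. Log2 values printed for tests are fitted fold changes with standard errors; SDs are over the 3 libraries of a group. Where a symbol had more than 1 row, the row with the most counts was used. Alternatives included DESeq2 1.42.0, limma 3.58.1 on log2(FPKM + 1) and log2(FPKM + 0.1), other scalings and filters, and leaving out each library. Leaving out 3 libraries together was chosen after seeing the data. The labels do not state that replicate numbers pair the samples, and the chosen model held no pairing.

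All 10 members are named in every comparison; of each pathway list, up to 4 members that passed, smallest p first, could be named. The members and lists were chosen with earlier results of these data known. Hif1a, Xist and the marker genes are given as checks of the samples.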

Additional observations from a re-analysis of the deposited data

How the results depend on the processing

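Of the values recomputed with other settings, 858 kept their direction and side of the threshold, 38 now passed, 18 no longer passed and 16 changed sign; with 1 library left out the numbers were 887, 14, 26 and 33. No value that passed in the chosen analysis changed sign. The cause was not tested. Members passing, in the order radiation, Complex 1 and combination against control, combination against Complex 1, radiation effect, Complex 1 effect and interaction, were 8, 4, 8, 4, 8, 4 and 1 without the filter on low values, against 3, 0, 5, 1, 5, 0 and 0. With the length trend removed 5 passed for radiation. DESeq2 passed 5 for radiation, 1 for Complex 1 and 2 for combination against Complex 1; there, both limma fits and robust estimation passed 0. The replicate block passed 2 there. Of 18 same-number pairs, 4 had r over 0.1 (-0.204 to 0.164), while other pairs ran from -0.242 to 0.177. With 3 libraries a group these values cannot exclude a pairing. Without the 3 libraries that stand apart, 1 passed for radiation and 3 for the radiation effect. With 1 library left out, members passing ranged from 1 to 5 for radiation, 0 to 1 for Complex 1, 4 to 7 for the combination, 0 to 0 for combination against radiation, 0 to 2 for combination against Complex 1, 3 to 7 for the radiation effect, and 0 to 0 for the Complex 1 effect and the interaction. Over all genes these ranges were 865 to 2014, 4 to 236, 2076 to 3176, 25 to 100, 582 to 1884, 2820 to 3804, 198 to 607 and 0 to 0. All-gene counts moved without the filter to 803 (Complex 1), 529 (combination against radiation), 2285 (combination against Complex 1), 1262 (Complex 1 effect) and 163 (interaction), with DESeq2 to 326, 187, 667 (Complex 1 effect) and 6 (interaction), and with only the compared groups to 45 for Complex 1, against 111, 89, 1364, 379 and 0. Without the 3 libraries they were 19 (Complex 1), 38 (combination against radiation), 2088 (combination against Complex 1) and 169 (Complex 1 effect). Sign changes, all of values that did not pass: without the 3 libraries, Hk2 was -0.036 for Complex 1, -0.140 for combination against radiation and -0.088 for the Complex 1 effect, Slc2a1 -0.019 and 0.054 for combination against radiation and against Complex 1, Car9 -0.029, Ndrg1 -0.114, Bnip3 0.016 against Complex 1, and Car9 -0.141 and Pdk1 0.050 in the interaction. Car9 was -0.017 for Complex 1 with the length trend removed, and Slc2a1 against Complex 1 was 0.003 with median-ratio scaling and DESeq2, 0.015 with library totals and 0.013 with both limma fits. With 1 library left out, sign changes ran from -0.132 to 0.245 (Car9) and -0.274 to 0.023 (Pdk1) for Complex 1. For combination against radiation they ran from -0.127 to 0.068 (Vegfa), -0.019 to 0.225 (Slc2a1), -0.140 to 0.211 (Hk2), -0.039 to 0.438 (Car9), -0.218 to 0.039 (Bnip3) and -0.114 to 0.176 (Ndrg1). Against Complex 1 they ran from -0.084 to 0.054 (Slc2a1), -0.038 to 0.207 (Hk2) and -0.192 to 0.016 (Bnip3), for the Complex 1 effect from -0.095 to 0.027 (Slc2a1) and -0.012 to 0.249 (Car9), and in the interaction from -0.344 to 0.008 (Hk2), -0.137 to 0.377 (Car9) and -0.168 to 0.129 (Pdk1). With 3 libraries a group, small differences of Pfkfb3 (340 to 974 counts) and Car9 (396 to 859 counts) are limited by the spread between samples.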
